A study of Mus musculus with 10 samples.

Results

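Collagen chain genes encode the polypeptide chains that assemble, 3 at a time, into the collagens of the extracellular matrix. In the table of expression values from mouse gastrocnemius muscle, 44 protein-coding genes carried a collagen chain symbol, out of 54232 genes in all. The 36 of them whose mean over the 10 mice was at least log2(10) on the regularized log2 (rlog) scale were taken as the members, and 14289 genes of all kinds passed the same limit. By the collagen type their symbol names, 10 members were fibrillar chains, 7 belonged to basement membranes, 7 were fibril-associated collagens with interrupted triple helices (FACIT) and 12 were of other types. The limit uses the mean over both genotypes, and the set was chosen with earlier results of these data known. The members just inside the limit were Col25a1, with a mean of 3.85, and Col19a1, with 4.36. Of the 8 genes outside it, Col4a6 (3.24) and Col17a1 (2.83) were the closest, and Col2a1 (2.45), Col9a3 (2.15), Col9a2 (2.09), Col10a1 (1.80), Col6a5 (1.41) and Col6a4 (-0.64) were lower.

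The 10 mice were 5 homozygous desmin knock-out mice (Des -/-) and 5 wild-type littermates (Des wt/wt), all 3 months old. Both groups carried the same strain name in the labels, made up of the background B6J and 129Sv-Destm1Cba/Cscl, where Destm1Cba is the allele. The knock-out is constitutive, so every cell type of the knock-out muscle lacked desmin throughout life. The study compared muscle gene expression between the genotypes while asking how the neuromuscular junction depends on desmin, the intermediate filament protein of muscle cells. The labels name the gastrocnemius muscle, and the study's text also speaks of the plantaris. The labels give 5 biological replicates for each genotype and the table held 5 separate columns for each, whereas the methods mention pooling of the extracted RNA. No 2 columns were identical. The p-values below measure the spread between these 10 columns.

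A collagen molecule is a triple helix, and each turn requires a glycine, which recurs at a fixed spacing along the chain. Fibrillar collagens (types I, III, V and XI) form the cable-like fibrils of tendon and of the connective tissue around muscle fibers, FACIT collagens sit on the surface of those fibrils, type IV forms the network of the basement membrane that wraps each muscle fiber, and type VI forms beaded filaments just outside that membrane. Several of the transmembrane collagens and the FACIT type XXII are known from specialized sites of muscle, the neuromuscular and the myotendinous junction.

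The promoters of a few members are shown as examples of chains with different outcomes. These are 3 fibrillar chains that were higher in the knock-out, the type IV chain that was higher and a type IV chain that did not pass the test. The promoter sequences are RefSeq windows on GRCm38.p6, 250 bases before to 50 bases after a start of the gene in RefSeq. They are written 5′ to 3′ on the strand of the gene, and capitals mark the letters CCAAT or TATAAA on either strand. RefSeq windows were matched for 29 of the 36 members, with 32 windows in all. No window was matched for Col1a1, Col4a3, Col5a2, Col12a1, Col14a1, Col22a1 and Col26a1. The windows shown are Col1a2 at chr6:4505368-4505667 (plus strand), Col3a1 at chr1:45311288-45311587 (plus strand), Col11a1 at chr3:114030290-114030589 (plus strand), Col4a5 at chrX:141475169-141475468 (plus strand) and Col4a1 at chr8:11312777-11313076 (minus strand). The Col1a2 window lies wholly inside the gene as GENCODE places it, with a start at 4504814, so it is not the sequence at that start.
Col1a2: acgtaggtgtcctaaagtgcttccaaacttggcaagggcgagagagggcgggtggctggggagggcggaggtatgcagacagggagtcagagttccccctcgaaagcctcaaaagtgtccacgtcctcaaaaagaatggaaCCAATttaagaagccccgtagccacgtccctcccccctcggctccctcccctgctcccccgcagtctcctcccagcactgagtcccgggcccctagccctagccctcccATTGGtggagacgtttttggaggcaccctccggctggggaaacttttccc
Col3a1: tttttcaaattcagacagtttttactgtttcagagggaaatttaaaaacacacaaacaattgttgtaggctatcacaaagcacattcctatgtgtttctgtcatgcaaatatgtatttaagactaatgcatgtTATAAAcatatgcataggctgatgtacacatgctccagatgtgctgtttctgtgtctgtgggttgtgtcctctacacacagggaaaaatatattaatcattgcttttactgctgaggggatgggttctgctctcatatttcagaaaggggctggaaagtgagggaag
Col11a1: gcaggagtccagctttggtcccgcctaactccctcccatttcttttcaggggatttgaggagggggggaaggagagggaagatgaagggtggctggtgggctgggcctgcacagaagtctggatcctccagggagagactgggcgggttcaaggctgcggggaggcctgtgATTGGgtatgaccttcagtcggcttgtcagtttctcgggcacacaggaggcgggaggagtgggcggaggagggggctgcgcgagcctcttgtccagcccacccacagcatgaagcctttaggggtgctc
Col4a5: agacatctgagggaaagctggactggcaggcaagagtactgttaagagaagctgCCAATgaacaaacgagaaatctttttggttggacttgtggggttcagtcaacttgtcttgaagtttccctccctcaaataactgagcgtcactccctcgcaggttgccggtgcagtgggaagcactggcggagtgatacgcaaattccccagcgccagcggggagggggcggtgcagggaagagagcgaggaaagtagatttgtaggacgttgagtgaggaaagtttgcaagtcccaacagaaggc
Col4a1: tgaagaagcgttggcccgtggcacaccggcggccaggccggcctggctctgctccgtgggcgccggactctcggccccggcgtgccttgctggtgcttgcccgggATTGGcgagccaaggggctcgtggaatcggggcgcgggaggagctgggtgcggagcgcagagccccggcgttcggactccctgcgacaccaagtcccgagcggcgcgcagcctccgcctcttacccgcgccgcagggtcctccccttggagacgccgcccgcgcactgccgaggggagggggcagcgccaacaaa
The letters CCAAT, read on either strand, stood in 11 of the 32 members' windows (34.4%) and in 37.4% of all 32851 promoter windows of the same length. TATAAA stood in 3 of the 32 (9.38%), among them that of Col3a1, and in 13.6% of all windows. GGGCGG stood in 19 of the 32 (59.4%) and in 35.7% of all, CAGAC in 19 of the 32 (59.4%) and in 49.6% of all, and GACTCA in 6 of the 32 (18.8%) and in 14.5% of all. These matches are a description of letters and no evidence of a bound factor.

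Of the 36 collagen chain genes, 12 (33.3%) rose in muscle that lacked desmin and 1 (2.78%) fell, by limma's test with a Benjamini-Hochberg adjusted p under 0.05 over all tested genes. Among all 14289 genes, 7.7% were called higher and 5.99% lower. The 12 higher members were Col12a1, Col11a1, Col23a1, Col25a1, Col8a1, Col4a5, Col26a1, Col1a2, Col24a1, Col1a1, Col3a1 and Col22a1, and the lower one was Col9a1. In 8 members (22.2%) all 5 knock-out mice lay above all 5 wild-type mice, which was the case for 7.45% of all genes, and in 1 member all lay below, as in 6.97% of all genes. The median log2 difference, knock-out minus wild-type, was 0.23 over the members and -0.0029 over all tested genes. In a bulk sample, fewer cells of a type and less RNA per cell cannot be told apart, so these differences are those of the whole muscle. Rlog values are shrunken towards the mean of each gene, so the differences are smaller than log2 fold changes of counts would be, most for genes with few reads.

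**Figure D1:**
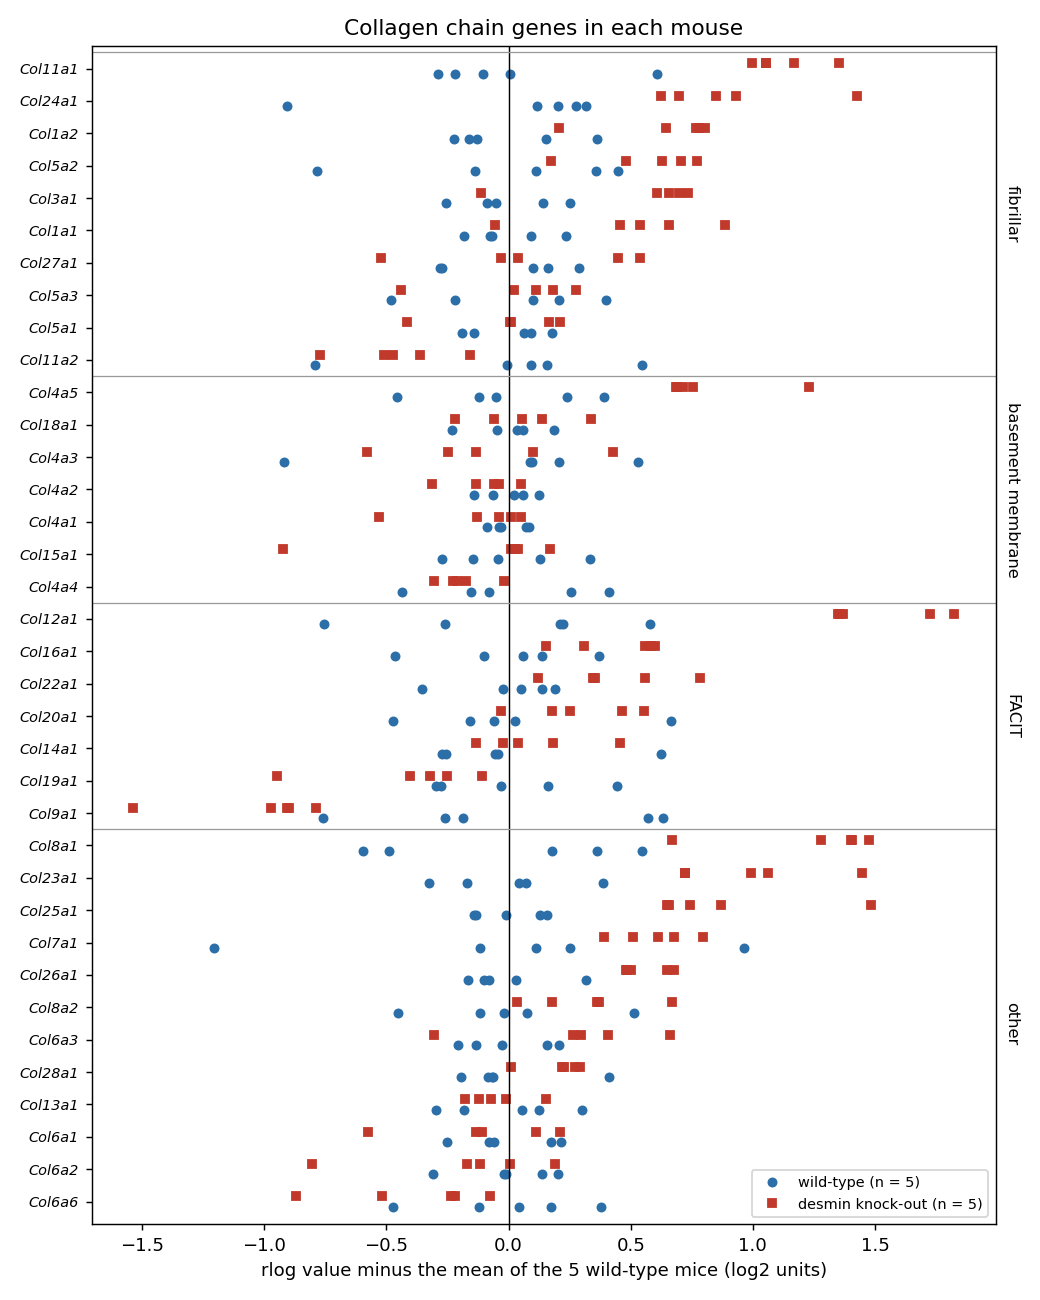
Each point is 1 mouse, with the rlog value of a collagen chain gene minus the mean of the 5 wild-type mice on the horizontal axis (log2 units) and the 36 members in rows by class. Blue circles are wild-type mice and red squares are desmin knock-out mice; the knock-out mice of Col12a1, Col11a1, Col8a1, Col23a1 and Col25a1 all lie to the right of the wild-type mice, and those of Col9a1 all lie to the left.

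Not all mice weighed equally in this picture. Among the wild-type mice, mouse 3 had the lowest value in 19 of the 36 members and mouse 5 the highest in 18, and among the knock-out mice, mouse 3 had the lowest value in 24 and mouse 1 the highest in 20. Wild-type mouse 3 also stood apart in the whole table, where its rlog values, turned back from log2 and summed, came to 1.48 times the median mouse, and where it correlated with mice of its genotype at 0.982 on average, against 0.989 to 0.991 for the other 4. Without wild-type mouse 3, 10 members were higher and 2 lower, with a median difference of 0.17, where 9.34% of all genes were higher and 8.13% lower. Without knock-out mouse 3, 11 members were higher. Des itself had rlog values of 16.1 to 17.7 in the wild-type mice and 11.8 to 11.9 in the knock-out mice. Acta1 and Ckm, the actin and creatine kinase that define skeletal muscle fibers, lay between 19.4 and 21.2 in all 10 mice.

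The fibrillar chains had the highest median difference of the 4 classes, with 5 of 10 (50%) higher, none lower and a median of 0.51. The shares of all tested genes were 7.7% higher and 5.99% lower. The chains of types I and III, which make up most of the fibrils of muscle connective tissue, rose together. In the sentences that follow, values are rlog values in the order of mice 1 to 5. Col1a2 (ENSMUSG00000029661, chromosome 6, 4504814 to 4541544 on GRCm38) stood at 11.27, 10.96, 10.99, 10.89 and 11.48 in the wild-type mice and at 11.90, 11.92, 11.33, 11.89 and 11.76 in the knock-out mice. Col1a1 (ENSMUSG00000001506, chromosome 11, 94936224 to 94953042) had values of 10.28, 10.01, 10.12, 10.11 and 10.42 in the wild-type mice and 10.84, 11.08, 10.13, 10.73 and 10.65 in the knock-out mice. Col3a1 (ENSMUSG00000026043, chromosome 1, 45311538 to 45349706) was measured at 11.96, 11.66, 11.45, 11.62 and 11.85 in the wild-type mice and at 12.37, 12.32, 11.60, 12.41 and 12.44 in the knock-out mice. In all 3 genes, 4 of the 5 knock-out mice lay above every wild-type mouse and knock-out mouse 3 lay within the wild-type range. The log2 difference was 0.64 ± 0.14 (SE) for Col1a2 with an adjusted p of 0.00795 in limma, 0.50 ± 0.15 for Col1a1 with 0.0437, and 0.52 ± 0.16 for Col3a1 with 0.0447.

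The calls of Col1a1 and Col3a1 were close to the threshold. Col1a1 passed under 8 of 19 alternative settings, with limma adjusted p-values from 0.00283 to 0.116, and Col3a1 under 7 of 19, with 0.00208 to 0.117. Without knock-out mouse 3, the mouse whose values overlapped the wild-type range, the adjusted p was 0.0044 for Col1a1 and 0.00208 for Col3a1. Without knock-out mouse 2 it was 0.116 for Col1a1, and without knock-out mouse 5 it was 0.117 for Col3a1. The call of Col1a1 was also lost without knock-out mouse 1 (0.105), 4 (0.0931) or 5 (0.0825) and without wild-type mouse 1 (0.0546), 2 (0.0957) or 4 (0.0827), and that of Col3a1 without knock-out mouse 1 (0.105), 2 (0.105) or 4 (0.112) and without wild-type mouse 2 (0.0837), 3 (0.0582), 4 (0.0867) or 5 (0.0526). The differences themselves stayed between 0.40 and 0.63 for Col1a1 and between 0.42 and 0.67 for Col3a1. Col1a2 passed under all 19.

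Col11a1 and Col24a1, known as fibrillar chains of cartilage and bone, were higher without overlap between the genotypes. Col11a1 (ENSMUSG00000027966, chromosome 3, 114030540 to 114220718), whose protein helps to start fibrils, had values of 5.06, 5.17, 4.88, 4.95 and 5.77 in the wild-type mice and 6.52, 6.16, 6.22, 6.33 and 6.22 in the knock-out mice. Its log2 difference of 1.12 ± 0.16 (SE; limma adjusted p = 3.58e-04) was the largest of the fibrillar chains. Col24a1 (ENSMUSG00000028197, chromosome 3, 145292472 to 145552011) stood at 7.92, 7.84, 6.73, 7.76 and 7.96 in the wild-type mice and at 9.07, 8.57, 8.34, 8.49 and 8.27 in the knock-out mice. Wild-type mouse 3 was more than 1 log2 unit below the other 4, and the difference of 0.91 ± 0.22 (adjusted p = 0.0156) was 0.68 without it (adjusted p = 0.00484). Over the 19 alternatives its adjusted p lay between 0.00176 and 0.0541.

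The type V chains, which join type I in mixed fibrils and set their diameter, did not pass the test. Col5a1 stood at 9.38, 9.15, 9.10, 9.35 and 9.47 in the wild-type mice and at 9.50, 9.45, 8.87, 9.30 and 9.30 in the knock-out mice, so the genotypes overlapped over most of their range, with a difference of -0.0048 ± 0.13. Col5a2 had values of 9.69, 9.35, 8.45, 9.10 and 9.60 in the wild-type mice and 10.01, 9.72, 9.41, 9.94 and 9.87 in the knock-out mice, of which 4 lay above all wild-type mice. Its difference of 0.55 ± 0.20 was of the size of Col3a1's but had a limma adjusted p of 0.0934, with 0.0164 to 0.192 over the alternatives, and it was called without wild-type mouse 1 (0.0469). Col5a3 differed by 0.03 and Col27a1 by 0.09, both not called. Col11a2, the second type XI chain, had a difference of -0.46 ± 0.20 with an adjusted p of 0.165, opposite in sign to that of Col11a1. Its value in wild-type mouse 3 was 7.25, against 8.03 to 8.59 in the other wild-type mice and 7.27 to 7.88 in the knock-out mice. Without that mouse the difference was -0.65 and passed the test (adjusted p = 0.00525, with 5.9e-04 to 0.39 over the alternatives), and Col11a2 was the second member then called lower.

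**Figure D2:**
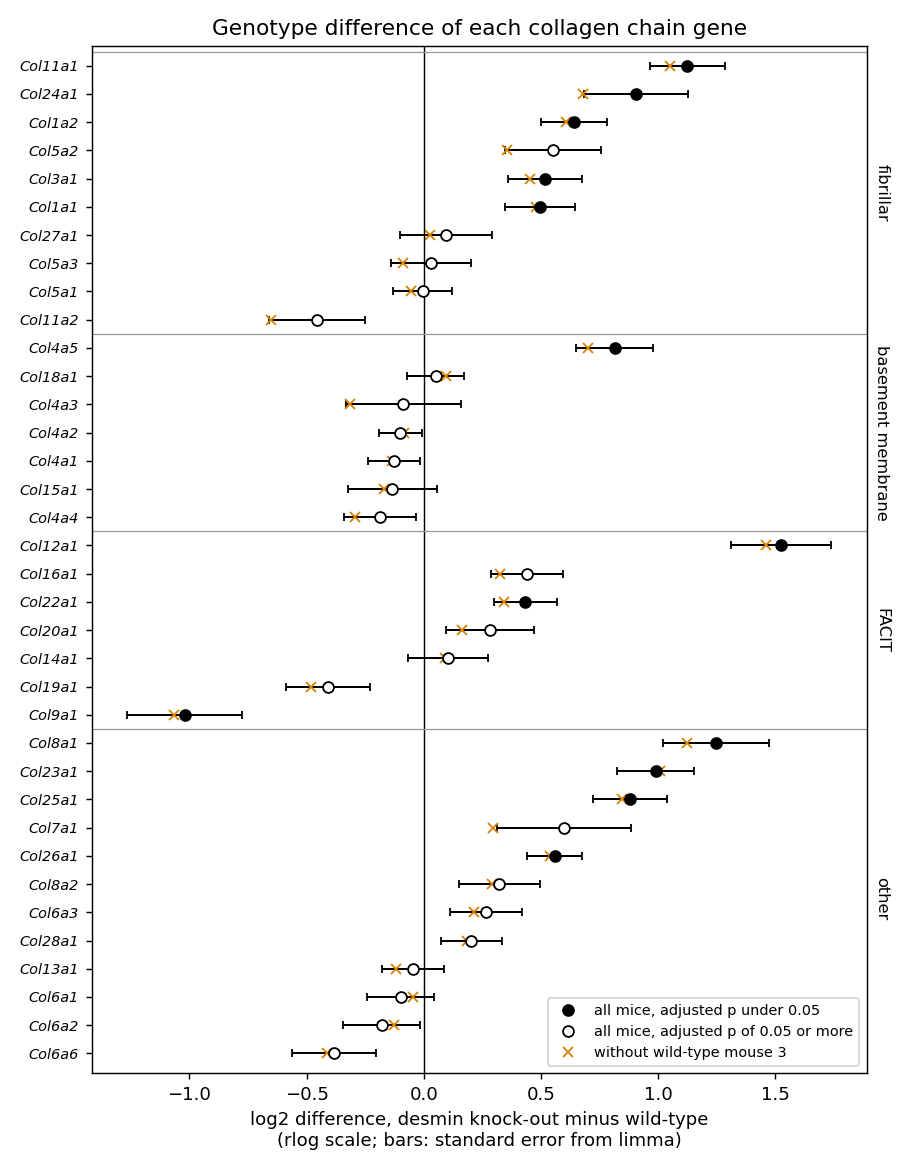
The log2 difference of each of the 36 collagen chain genes, desmin knock-out minus wild-type on the rlog scale, is shown with the standard error from limma as bars, filled where the adjusted p was under 0.05. Orange crosses give the difference without wild-type mouse 3; that of Col11a2 moves from -0.46 to -0.65 and that of Col7a1 from 0.60 to 0.29.

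In basement membranes, 1 of 7 members (14.3%) was higher, none was lower and the median difference was -0.10. With 7.7% of all tested genes higher and 5.99% lower, 1 call among 7 members is too few to set the class apart. The member that rose was Col4a5 (ENSMUSG00000031274, X chromosome, 141475385 to 141689234), which encodes the α5 chain of type IV collagen. Its values were 6.55, 6.11, 5.71, 6.04 and 6.40 in the wild-type mice and 7.40, 6.88, 6.85, 6.92 and 6.85 in the knock-out mice. The genotypes did not overlap, and the difference was 0.81 ± 0.17 (SE; limma adjusted p = 0.00498), with adjusted p-values of 8.52e-04 to 0.0175 over the alternatives. Col4a6, which shares the start region of Col4a5 head to head at a distance of 1308 bases, was under the expression limit with a mean of 3.24.

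The main chains of the type IV network, α1 and α2, are encoded by Col4a1 and Col4a2 and did not pass the test. Col4a1 stood at 11.67, 11.56, 11.55, 11.66 and 11.50 in the wild-type mice and at 11.64, 11.46, 11.06, 11.55 and 11.60 in the knock-out mice. Col4a2 had values of 11.25, 11.17, 11.37, 11.44 and 11.33 in the wild-type mice and 11.36, 11.25, 10.995, 11.18 and 11.27 in the knock-out mice. Apart from the low values of knock-out mouse 3, the knock-out mice lay within or close to the wild-type range in both genes, with differences of -0.13 ± 0.11 (adjusted p = 0.485) and -0.10 ± 0.09 (adjusted p = 0.514). The 2 genes lie head to head on chromosome 8 and their annotated starts overlap by 22 bases, so that the promoter window of Col4a1 shown above reaches into the window of Col4a2.

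Col4a3 and Col4a4, the α3 and α4 chains, form another head-to-head pair, 71 bases apart on chromosome 1. Col4a3 was measured at 5.56, 5.55, 4.54, 5.67 and 5.99 in the wild-type mice and at 5.56, 4.88, 5.89, 5.21 and 5.33 in the knock-out mice. Col4a4 was measured at 5.56, 5.48, 5.21, 5.90 and 6.05 in the wild-type mice and at 5.33, 5.62, 5.41, 5.43 and 5.46 in the knock-out mice. The groups overlapped in both, with differences of -0.09 ± 0.25 and -0.19 ± 0.15 that were not called. These genes lie 7.22 and 7.08 Mb from Des, the closest of the 7 members on chromosome 1. The others are Col6a3 at 15.4 Mb, Col5a2 at 29.9 Mb, Col3a1 at 30.0 Mb, Col19a1 at 50.8 Mb and Col9a1 at 51.1 Mb, and of these 7 members Col3a1 was called higher and Col9a1 lower.

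The multiplexins XV and XVIII, proteoglycan-like collagens that link basement membranes to the matrix below, showed no called change. Col15a1 stood at 9.34, 8.94, 9.07, 9.17 and 9.55 in the wild-type mice and at 9.22, 9.39, 8.29, 9.24 and 9.25 in the knock-out mice, with knock-out mouse 3 alone below the wild-type range. Col18a1 stood at 7.95, 7.87, 8.10, 7.68 and 7.97 in the wild-type mice and at 8.25, 8.05, 7.70, 7.97 and 7.85 in the knock-out mice. The differences were -0.14 ± 0.19 and 0.05 ± 0.12.

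Among the FACIT collagens, 2 of 7 (28.6%) were higher and 1 (14.3%) was lower, with a median difference of 0.28. Of all tested genes, 7.7% were higher and 5.99% lower. This class held both the largest rise and the only called fall among the members. Without wild-type mouse 3, 1 was higher and the median was 0.17. Col12a1 (ENSMUSG00000032332, chromosome 9, 79598991 to 79718831) encodes type XII collagen, a large molecule on the fibrils of tendon and muscle connective tissue whose human variants cause a myopathy. It had values of 6.67, 6.68, 6.20, 5.70 and 7.04 in the wild-type mice and 8.28, 8.18, 7.81, 7.83 and 7.81 in the knock-out mice. The lowest knock-out mouse was above the highest wild-type mouse, and the means were 6.46 ± 0.52 (SD, n = 5) and 7.98 ± 0.23 (SD, n = 5). The difference of 1.53 ± 0.21 (SE), 2.88-fold on the rlog scale, had a limma adjusted p of 3.08e-04 and passed under all 19 alternatives, with a range of 1.23 to 1.67.

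Col9a1 (ENSMUSG00000026147, chromosome 1, 24177610 to 24252684), a FACIT chain known from cartilage, was the member that fell. Its values were 6.93, 6.10, 6.18, 5.60 and 6.99 in the wild-type mice and 4.82, 5.57, 5.45, 5.39 and 5.46 in the knock-out mice. The highest knock-out mouse and the lowest wild-type mouse were 5.57 and 5.60, so the groups were separate by a narrow margin. The difference was -1.02 ± 0.25 (SE; limma adjusted p = 0.0138), with 2.26e-04 to 0.0511 over the alternatives, the last without a limit on expression. Its partner chains Col9a2 and Col9a3 were under the expression limit, with means of 2.09 and 2.15. Col19a1, the tail-to-tail neighbour of Col9a1 at a distance of 9.21 kb, had a difference of -0.41 ± 0.18 that was not called (adjusted p = 0.16).

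Col22a1 (ENSMUSG00000079022, chromosome 15, 71795795 to 72034227) encodes the FACIT collagen of the myotendinous junction. It stood at 9.79, 9.85, 9.30, 9.64 and 9.71 in the wild-type mice and at 10.44, 10.22, 10.005, 10.01 and 9.78 in the knock-out mice, of which 4 lay above all wild-type mice. The difference of 0.43 ± 0.13 had a limma adjusted p of 0.0484. This was the least stable of the calls, passing under 5 of 19 alternatives with adjusted p-values of 0.0195 to 0.136. It was lost without knock-out mouse 1 (0.121), 2 (0.12), 3 (0.0749) or 4 (0.0802) and without wild-type mouse 1 (0.0514), 3 (0.0556), 4 (0.0806) or 5 (0.068).

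Col14a1, the FACIT closest in build to Col12a1, had values of 6.77, 6.97, 6.98, 6.75 and 7.65 in the wild-type mice and 6.89, 7.21, 7.0, 7.48 and 7.06 in the knock-out mice. The groups overlapped, with a difference of 0.10 ± 0.17. Col16a1 differed by 0.44 ± 0.15 (limma adjusted p = 0.079, with 0.00955 to 0.17 over the alternatives) and was called without wild-type mouse 5 (0.0343). Col20a1 differed by 0.28 ± 0.19 and was not called.

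Of the 12 members of other types, 4 (33.3%) were higher and none lower, with a median difference of 0.29. The shares of all tested genes were 7.7% and 5.99%. The 4 genes had no overlap between the genotypes, as was the case for 7.45% of all genes in the same direction. Col8a1 (ENSMUSG00000068196, chromosome 16, 57624258 to 57754737), a short chain of the sheet-like networks around vessels, stood at 7.39, 7.20, 6.54, 6.43 and 7.57 in the wild-type mice and at 8.30, 8.43, 7.70, 8.43 and 8.50 in the knock-out mice. Its difference of 1.25 ± 0.23 (SE; limma adjusted p = 0.00226) was the second largest rise, and knock-out mouse 3 lay well below the other 4. Its partner chain Col8a2 differed by 0.32 ± 0.17 and was not called.

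The transmembrane collagens were divided. Col23a1 (ENSMUSG00000063564, chromosome 11, 51289920 to 51583918) had values of 5.86, 6.08, 6.11, 5.71 and 6.42 in the wild-type mice and 7.48, 7.10, 7.03, 6.76 and 6.75 in the knock-out mice, a difference of 0.99 ± 0.17 (SE; limma adjusted p = 0.00121). Col25a1 (ENSMUSG00000058897, chromosome 3, 130131501 to 130599877), which muscle makes during development and motor axons need to innervate it, had values of 3.40, 3.57, 3.27, 3.28 and 3.54 in the wild-type mice and 4.90, 4.28, 4.16, 4.06 and 4.07 in the knock-out mice. Col25a1 was the lowest of all members, just inside the expression limit with a mean of 3.85, and its difference was 0.88 ± 0.16 (adjusted p = 0.00214), with knock-out mouse 1 above the other 4. Col13a1, the transmembrane collagen of the neuromuscular junction, differed by -0.05 ± 0.13 and was not called. Col17a1, the remaining gene of this group, was under the expression limit.

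Col26a1 (ENSMUSG00000004415, chromosome 5, 136741759 to 136883209), a small collagen-like chain, stood at 4.09, 4.28, 4.17, 4.57 and 4.15 in the wild-type mice and at 4.93, 4.90, 4.73, 4.76 and 4.74 in the knock-out mice. The spread within each genotype was small, and the difference of 0.56 ± 0.12 (SE) had a limma adjusted p of 0.00624. Col7a1, the chain of anchoring fibrils, differed by 0.60 ± 0.29 and was not called (adjusted p = 0.196, with 0.0216 to 0.39 over the alternatives). Its wild-type mice ranged from 9.46 in mouse 3 to 11.64 in mouse 4, the widest range of any member, whereas the knock-out mice lay between 11.07 and 11.47. Without wild-type mouse 3 its difference was 0.29, and without wild-type mouse 4 it was 0.84 and was called (0.0425). Col28a1 differed by 0.20 ± 0.13 and was not called.

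None of the 4 type VI chains was called, and their median difference was -0.14, or -0.087 without wild-type mouse 3. Col6a1 stood at 10.28, 10.09, 10.55, 10.26 and 10.51 in the wild-type mice and at 10.55, 10.45, 9.76, 10.23 and 10.20 in the knock-out mice. Col6a2 stood at 10.28, 9.98, 10.49, 10.27 and 10.43 in the wild-type mice and at 10.30, 10.48, 9.48, 10.17 and 10.12 in the knock-out mice. Col6a3 stood at 9.998, 9.71, 9.64, 9.82 and 10.05 in the wild-type mice and at 10.50, 10.14, 9.54, 10.25 and 10.11 in the knock-out mice. Knock-out mouse 3 was the lowest of all mice in each of these 3 genes, and 4 of the 5 knock-out mice lay above all wild-type mice in Col6a3 alone. The differences were -0.10 ± 0.14, -0.18 ± 0.16 and 0.27 ± 0.15, and that of Col6a6 was -0.38 ± 0.18 (adjusted p = 0.185). Col6a4 and Col6a5 were under the expression limit.

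For 10 pairs, the difference of 2 rlog values within a mouse was compared between the genotypes. The pairs were chains of 1 molecule or fibril, or of related collagens such as types XV and XVIII. They were chosen with earlier results of these data known. The tests were two-sided exact permutation tests over the 10 mice. With 5 mice against 5, the smallest p such a test can give is 0.00794. The difference Col1a1 minus Col1a2, the 2 chains of type I collagen, moved by -0.14 from wild-type to knock-out (permutation p = 0.119, adjusted over the pairs 0.198), and Col1a1 minus Col3a1 moved by -0.02 (p = 0.881). By the same exact test, the move was -0.03 in Col4a1 minus Col4a2 (p = 0.698), in Col6a1 minus Col6a2 0.08 (p = 0.302) and in Col15a1 minus Col18a1 -0.19 (p = 0.381). For these 5 pairs no change was detected, while the spread over mice within a genotype was 0.05 to 0.33 log2 units (SD).

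The other 5 pairs had an adjusted p under 0.05. Because the pairs were chosen with earlier results of these data known, these p-values are no independent support for a change. Col1a1 minus Col5a1 was 0.76 to 1.02 in the wild-type mice and 1.26 to 1.62 in the knock-out mice, without overlap, and rose by 0.50 (exact permutation p = 0.00794, adjusted 0.0265). Col12a1 minus Col14a1 was -1.05 to -0.10 in the wild-type mice and 0.35 to 1.39 in the knock-out mice. It rose by 1.42 (permutation p = 0.00794, adjusted 0.0265), and Col12a1 minus Col1a1 rose by 1.03 (p = 0.00794, adjusted 0.0265). Both moves largely restate the rise of Col12a1 itself (1.53), since Col14a1 differed by 0.10 and Col1a1 by 0.50. In the same way, Col1a1 minus Col5a1 restates the rise of Col1a1, since Col5a1 differed by -0.0048. Col5a1 minus Col5a2 fell by 0.56 (permutation p = 0.0159, adjusted 0.0317) and Col6a1 minus Col6a3 fell by 0.36 (p = 0.0159, adjusted 0.0317), each with 1 wild-type mouse, mouse 3, far above the others. No chain of either pair was called by itself in limma's test. With any 1 mouse left out the smallest possible p is 0.0159, and the adjusted p of these 5 pairs was then 0.0317 without knock-out mouse 2 or wild-type mouse 1 and 0.0529 or 0.0635 without any other mouse, while each kept its direction.

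**Figure D3:**
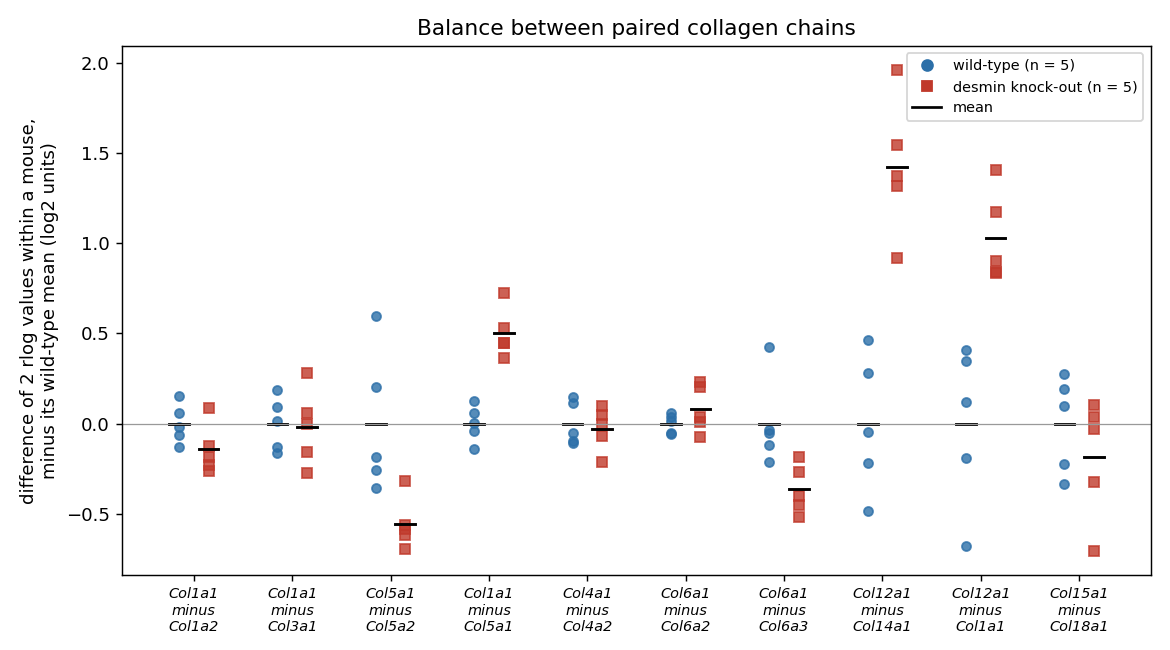
For 10 pairs of collagen chains, the difference of the 2 rlog values within a mouse is plotted after subtraction of its wild-type mean (log2 units), with blue circles for wild-type mice, red squares for desmin knock-out mice and bars for the means. The knock-out mice lie above all wild-type mice for Col1a1 minus Col5a1, Col12a1 minus Col14a1 and Col12a1 minus Col1a1.

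Per length, as the mean rlog value minus log2 of the length in kb of the longest annotated transcript, the members spanned from 9.23 for Col3a1 to 0.67 for Col25a1 in the wild-type mice. The order of these levels was led by Col3a1, Col4a1 (8.86), Col1a2 (8.70), Col4a2 (8.62), Col6a1 (8.30), Col6a2 (7.99) and Col1a1 (7.62). In the knock-out mice it was led by Col3a1 (9.75), Col1a2 (9.34), Col4a1 (8.74), Col4a2 (8.52), Col6a1 (8.20) and Col1a1 (8.12). Neighbours in the wild-type order such as Col4a1 and Col1a2, or Col1a2 and Col4a2, differed by less than the spread of Col1a2 between the wild-type mice (SD 0.25). Of the 3 members with the largest rise, Col8a1 was near the middle of this order, at 4.67 in the wild-type and 5.92 in the knock-out mice. Col12a1 and Col11a1 were in its lower part, at 2.93 and 2.23 in the wild-type and at 4.46 and 3.35 in the knock-out mice.

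**Figure D4:**
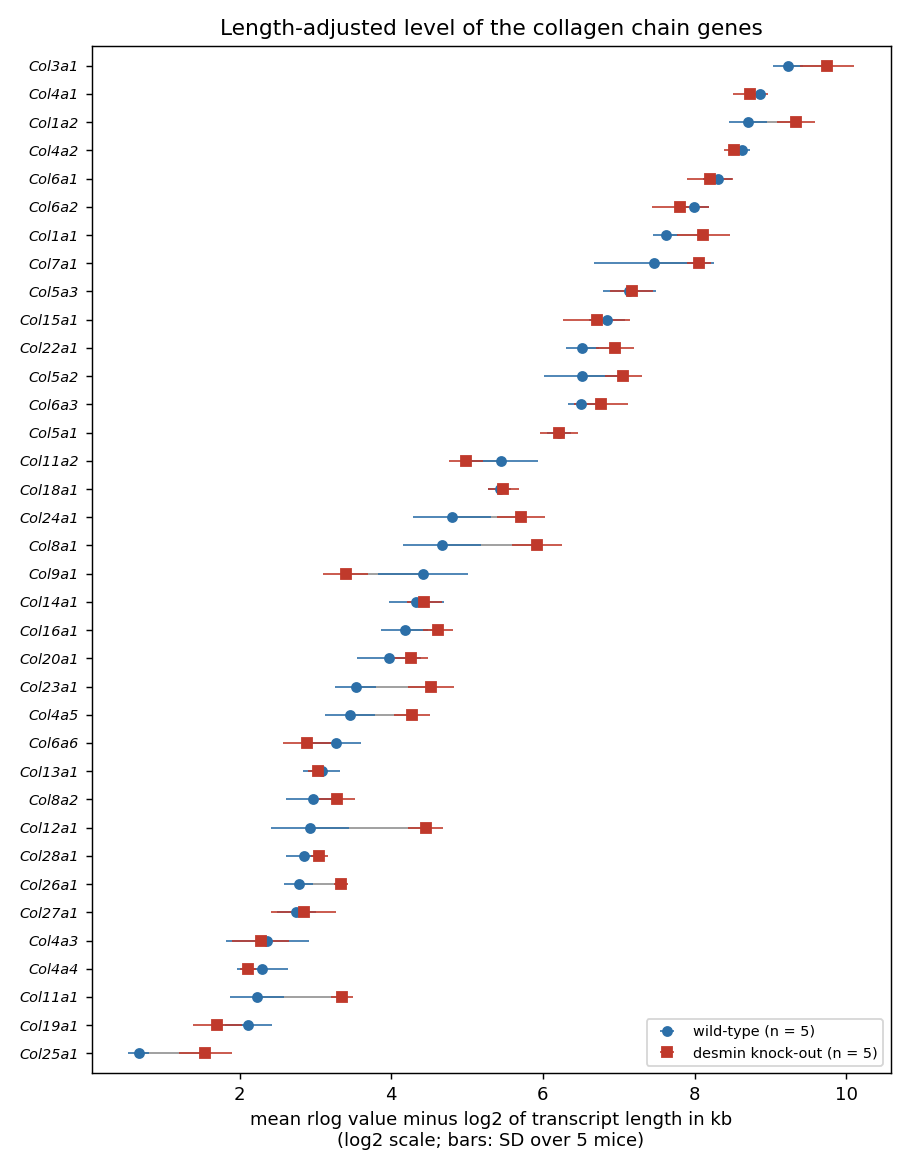
Points give the length-adjusted level of each collagen chain gene, the mean rlog value minus log2 of the transcript length in kb, with the SD over 5 mice as bars, for wild-type (blue circles) and desmin knock-out mice (red squares) in the order of the wild-type level. Col3a1 is the highest and Col25a1 the lowest in both genotypes, and Col12a1 moves from 2.93 to 4.46.

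The members also differ in how their coding sequence is built. Counting uninterrupted runs of codons in which a glycine codon stands at the start of each triplet of codons, 8 members, all fibrillar, had a longest run of 337 to 344 triplets, while the other 28 had longest runs of 23 to 217. Of the 8, 4 were higher and none lower, with a median difference of 0.51. Of the 28, 8 were higher and 1 lower, with a median of 0.15. The shares of all tested genes were 7.7% higher and 5.99% lower. Col12a1, Col14a1 and Col20a1 shared a longest run of 32 triplets, and the 5 type IV chains had 22 to 27 separate runs each. A length of the collagenous stretch did not separate the members that changed from those that did not, since Col5a1 and Col5a3 had runs of 338 and 337 triplets.

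Newly made collagen chains are hydroxylated, folded, trimmed and cross-linked by a set of dedicated proteins. Of 46 genes listed for these steps and for collagen receptors, 42 were tested, and 3 were higher and 1 lower in the knock-out, with a median difference of -0.0075 (0.027 without wild-type mouse 3). These shares, 7.14% and 2.38%, are not above the 7.7% and 5.99% of all tested genes. P3h2, a prolyl 3-hydroxylase that acts on type IV collagen, rose by 1.46 ± 0.17 (SE; limma adjusted p = 8.32e-05), with values between 6.27 and 7.18 in the wild-type mice and between 8.02 and 8.63 in the knock-out mice. Lox, which starts the cross-linking of fibrils, rose by 0.90 ± 0.19 (adjusted p = 0.00751), with values between 6.95 and 8.12 in the wild-type mice and between 8.19 and 8.64 in the knock-out mice. Tmem38b, a cation channel of the endoplasmic reticulum, rose by 0.26 ± 0.08 with an adjusted p just under the threshold (0.049999, with 0.0212 to 0.147 over the alternatives). P4ha2, a catalytic subunit of prolyl 4-hydroxylase, fell by 0.52 on the log2 scale (adjusted p = 0.00591). Its wild-type mice lay between 10.05 and 10.50 and its knock-out mice between 9.55 and 9.89.

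By step, 1 of 14 tested genes for hydroxylation and glycosylation was higher and 1 lower, 1 of 10 for folding and secretion was higher, none of 5 for propeptide processing was called, 1 of 5 for cross-linking was higher and none of 8 receptors and uptake genes was called. Serpinh1, the collagen chaperone HSP47, differed by -0.09 ± 0.13. Plod2, which hydroxylates lysines used in cross-links, differed by 0.63 ± 0.20 (limma adjusted p = 0.0557, with 0.0213 to 0.131 over the alternatives), and Itgb1, the β1 integrin subunit of collagen receptors, by 0.29 ± 0.09 (adjusted p = 0.0557, with 0.00797 to 0.133). Without wild-type mouse 1, 5 genes of the list were higher in place of 3, and without knock-out mouse 4, 2 were lower in place of 1.

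Marker genes of several cell types were also compared between the genotypes. Of 8 tenocyte markers, all of them tested, 4 (50%) were higher and none lower, with a median difference of 0.61. Among all genes, 7.7% were higher and 5.99% lower. The 4 were Tnmd (1.51 ± 0.24, limma adjusted p = 8.22e-04), Thbs4 (0.96 ± 0.16), Comp (0.87 ± 0.19) and Scx (0.77 ± 0.16). They code for tenomodulin, 2 tendon matrix proteins and a transcription factor of tendon. Mkx (0.46 ± 0.22) and Fmod (0.40 ± 0.26) were not called. Kera (-0.03 ± 0.43) and Chad (-0.15 ± 0.24), with the opposite sign, were not called either. The summed level of the list, with the rlog values turned back from log2 before summing, was 3889 to 7895 in the wild-type mice. It was 8005 to 11567 in the knock-out mice, without overlap. Wild-type mouse 3 and knock-out mouse 3 were closest to each other, at 7895 and 8005. Thbs4, the highest gene of the list, weighed most in this sum. Its own rlog values were 11.44 to 12.49 in the wild-type mice and 12.52 to 13.04 in the knock-out mice. The sum is therefore largely the level of 1 called gene. How far a share of tendon in the dissected muscle enters the collagen differences was not tested.

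The shares below stand against 7.7% higher and 5.99% lower among all tested genes. Of 11 tested fibroblast markers, 2 (18.2%) were higher (Lum and Mfap5) and 2 (18.2%) lower (Ly6a and Thy1). The summed level was 20319 to 40568 in the wild-type mice and 28064 to 37503 in the knock-out mice. Pdgfra, which marks fibro-adipogenic cells, differed by 0.08 ± 0.19, and Tcf21 was listed at 0 in all mice. Of 10 endothelial markers, 5 (50%) were lower (Pecam1, Cdh5, Tek, Tie1 and Vwf) and none higher, with sums of 6313 to 7920 and 4993 to 6391. No marker was called among 8 of Schwann cells (1670 to 2882 and 2012 to 2741) and 10 of macrophages (2709 to 3379 and 2571 to 3670). Among 8 markers of smooth muscle and pericytes, Cspg4 was higher and Kcnj8 lower, 12.5% each (sums of 18779 to 27354 and 17460 to 20256). Among 10 of muscle fibers, Myh2 was higher and Myh4 lower, 10% each (5295488 to 10035315 and 4699471 to 5376182). Without wild-type mouse 3, Mfap5 (limma adjusted p = 0.0521) and Tek (0.0528) were not called and 3 of the muscle fiber markers were higher. The sums weigh the highest genes most, such as Gsn and Dcn for fibroblasts and Rgs5 and Abcc9 for smooth muscle and pericytes. They are therefore no measure of a whole list. The part of these cell types in the collagen values was not tested.

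**Figure D5:**
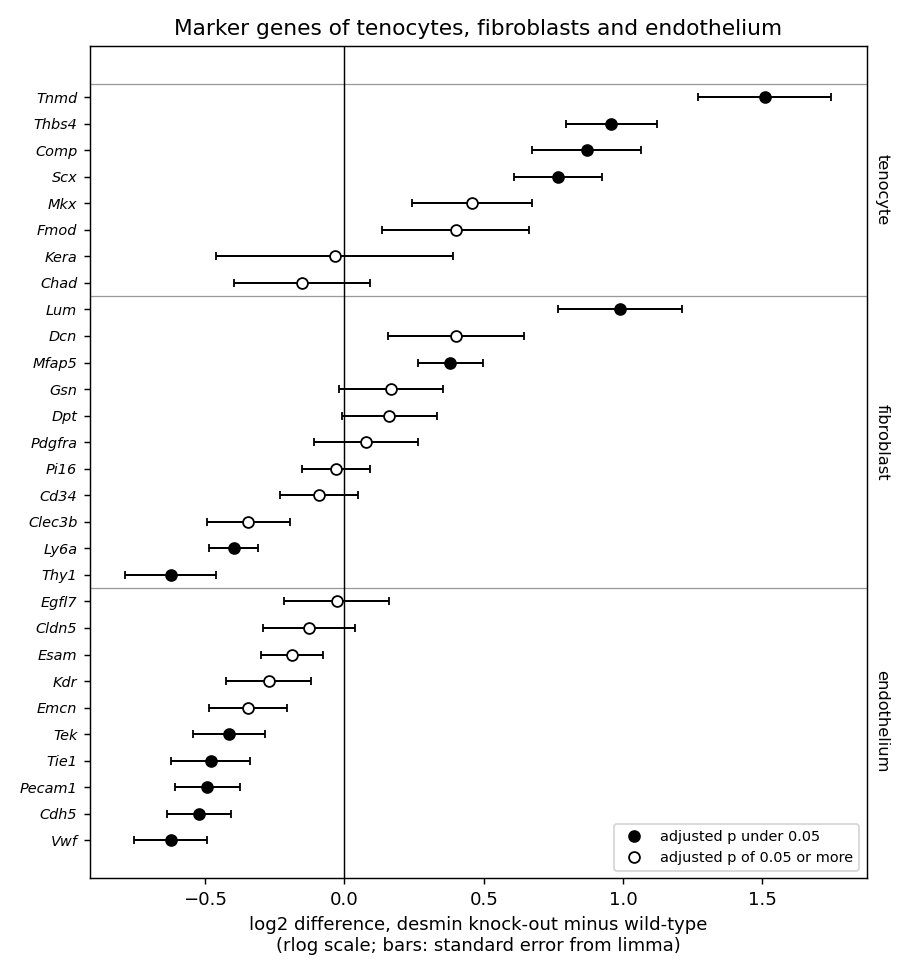
The log2 difference, desmin knock-out minus wild-type on the rlog scale, is drawn with its standard error from limma for the markers of tenocytes, fibroblasts and endothelium, filled where the adjusted p was under 0.05. Of the 8 tenocyte markers 4 are filled to the right of 0, led by Tnmd at 1.51, and of the 10 endothelial markers 5 are filled to the left of 0.

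Exons of 10 members overlap another annotated gene, by 0.174% to 5.65% of their exon length. The largest share was that of Col4a3, with a transcript on the opposite strand. The libraries were stranded, and whether the counting used the strand was not given in the sources used here. Of the members that rose, Col3a1 shared 1.44% and Col22a1 0.174% of its exon length.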

How the data were processed

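RNA-seq of the gastrocnemius muscle was analysed for 5 mice without desmin and 5 wild-type littermates. The submitters' processing notes name cutadapt 2.5, STAR 2.5.4a, featureCounts of Subread 1.6.1, DESeq2 and GRCm38. The authors deposited rlog values, that is log2 values that correct for library size and pull each mouse towards its gene's mean. The settings of that step are not given in the sources used here. With no counts, depth and counting error are unknown, so no intervals were set. All 10 sample columns were used.

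Gene symbols, positions, transcript lengths and coding sequences came from GENCODE M21 (GRCm38), which matched 54165 of the 54232 genes. Every gene whose mean reached log2(10) entered 1 fit with limma 3.58.1 under R 4.3.3, in which eBayes used a mean-dependent prior variance. The tests were two-sided, with p-values adjusted over the 14289 genes after Benjamini and Hochberg. Differences within a mouse between 2 chains were tested with exact permutation tests in scipy 1.17.1. The fit was tested on simulated data.

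The members, the lists of collagen biosynthesis genes and cell type markers, and the pairs were chosen with earlier results of these data known. Values per mouse are given for up to 12 members with the smallest adjusted p under 0.05, for Col1a1, Col1a2, Col3a1, Col5a1, Col5a2, Col6a1, Col6a2, Col6a3, Col4a1, Col4a2, Col12a1, Col14a1, Col15a1 and Col18a1, and for members within 20 Mb of Des. Those of Col22a1 were added after its values were seen. The 19 alternatives for a member included leaving out each mouse in turn and dropping the expression limit or raising it to log2(50). Others were centring on the median, quantile normalization, a common prior variance, sample weights in limma and a block for the mouse number. The rest were a covariate made of the mean over 4 Y-linked transcripts, and removing trends on GC content and on the joint length of all exons of a gene. For counts of calls, an adjusted p under 0.01 was also tried.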

Additional observations from a re-analysis of the deposited data

Results flagged for a closer look

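In 72 groups, the 36 members in 5 mice of each genotype, 11 values lay far from the other 4 mice of their genotype, where about 3.6 would be expected by chance at 1 in 20 groups. The measure was the gap to the nearest mouse as a share of the group's whole range (Dixon's test). In knock-out mouse 3 these were the lowest values of Col1a2 (11.33), Col3a1 (11.60), Col8a1 (7.70), Col15a1 (8.29) and Col28a1 (4.94). Knock-out mouse 1 had the highest values of Col4a5 (7.40) and Col25a1 (4.90) and the lowest of Col9a1 (4.82). Among the wild-type mice, mouse 3 was lowest in Col24a1 (6.73), mouse 4 highest in Col28a1 (5.34) and mouse 5 highest in Col14a1 (7.65).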

How the results depend on the processing

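The count of 12 higher collagen chain genes was 8 without an expression limit and at an adjusted p under 0.01, 9 with a limit of log2(50), median centring, a single prior variance or the Y-linked covariate, 12 with quantile normalization, 13 without GC and length trends and 15 with sample weights, and 9 to 11 with 1 mouse left out. The count of lower members was 0 without a limit and at an adjusted p under 0.01, 3 with sample weights and 1 to 2 with 1 mouse left out, 2 being without wild-type mouse 3. Higher biosynthesis genes numbered 10 with sample weights and 2 to 5 with 1 mouse left out; lower ones numbered 2 with quantile normalization or without GC and length trends, 3 with sample weights and 1 to 2 with 1 mouse left out. Of all genes, 1956 were called, 4220 with sample weights, 994 at an adjusted p under 0.01 and 1400 to 2496 with 1 mouse left out. The median over the members stayed between 0.17 and 0.27. Of the 13 called members, 8 passed under every alternative and none changed sign, while 6 uncalled members passed under at least 1. Causes were not tested.

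The sample titles do not say whether same-numbered mice of the 2 genotypes share more than a number. The correlations of their deviations were 0.03, -0.22, 0.01, -0.15 and 0.07, and no mouse correlated best with its own number. Such correlations cannot exclude a shared litter or batch, because these need not move the whole profile. With that number as a block, 13 members were higher, 1 lower, and 1579 genes were called.

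Differences near 0 that were not called changed sign under some alternatives. Without GC and length trends these were Col4a2 (0.0207), Col5a1 (0.0748), Col13a1 (0.0541) and Col1a1 minus Col3a1 (0.0605). Col18a1 was -0.0135 with quantile normalization, Col5a3 was -0.0119 with median centring and -0.0321 with the Y-linked covariate, and Col5a1 was 0.0080 with sample weights. With 1 mouse left out the ranges were -0.21 to 0.062 for Col15a1, -0.022 to 0.12 for Col18a1, -0.32 to 0.046 for Col4a3, -0.017 to 0.25 for Col27a1, -0.090 to 0.15 for Col5a3, -0.058 to 0.098 for Col5a1, -0.18 to 0.020 for Col6a1, -0.12 to 0.029 for Col13a1, -0.095 to 0.044 for Col1a1 minus Col3a1 and -0.059 to 0.019 for Col4a1 minus Col4a2.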
